A study of Zea mays with 6 samples.

Results

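The genes described here are 7 classical maize (Zea mays) loci of sucrose and starch metabolism, chosen by gene ID from the 45855 genes of the deposited tables. They are sus1 (Zm00001d047253), sh1 (Zm00001d045042), bt2 (Zm00001d050032), sh2 (Zm00001d044129), wx1 (Zm00001d045462), ae1 (Zm00001d016684) and su1 (Zm00001d049753). The pairs of symbol and ID are those that define the set. A RefSeq gene table holds 6 of the 7 symbols but 0 of the IDs in the files, so it could not check the pairs. Polyadenylated RNA was sequenced from whole seedlings at the coleoptile stage, in 3 Fdl1-/- samples and 3 wild-type samples, stated to be biological replicates. The mutated gene, fused leaves1, is known to act on the cuticle and on the separation of young leaves through the MYB factor that it encodes. The labels name the genotype alone and give neither the lesion nor the background of the allele.

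Sucrose arriving in a sink tissue can be cleaved by sucrose synthase, which gives UDP-glucose and fructose. ADP-glucose pyrophosphorylase, an enzyme of large and small subunits, makes the ADP-glucose from which starch is built. Starch synthases lengthen the glucan chains, branching enzymes add branch points, and isoamylase-type debranching enzymes trim them. Except for sus1, the loci are named for kernel mutants in which endosperm starch or sugar is altered. Sequences of the loci were not used here.

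Total expected counts were 28660896 to 35793334 in the Fdl1-/- libraries and 26807205 to 36123679 in the wild-type libraries. Across genes, log-CPM values of library pairs had Pearson correlations of 0.973 to 0.980 within Fdl1-/- and 0.938 to 0.975 within wild type, where replicate 1 was the library apart. Between the genotypes the correlations were 0.918 to 0.962, which overlaps the range within wild type. Wild-type replicate 3 was at 0.955 to 0.962 with the Fdl1-/- libraries and at 0.938 with wild-type replicate 1. Fold changes and ratios are also given without wild-type replicate 1. No table used here pairs markers of endosperm, embryo, leaf or root with IDs of the files, so the tissue was not checked against markers. In whole seedlings, fewer cells of a type and less RNA per cell cannot be told apart.

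The loci spanned nearly the whole range of expression, from a sucrose synthase gene among the most abundant transcripts to a starch synthase gene near the limit of detection. In TPM, which is scaled to transcript length and so allows levels of different genes to be compared, the order was sus1, sh1, bt2, su1, ae1, sh2 and wx1 in all 6 libraries. The ranges of neighbouring loci in this order did not overlap within either genotype. The closest neighbours were bt2 and su1 in Fdl1-/-, whose mean TPM differed 1.28-fold, against 2.06-fold in wild type. Together sus1 and sh1 summed to 1260 ± 92.4 TPM in Fdl1-/- and 1531 ± 149 TPM in wild type (SD, n = 3 each). The 5 starch genes summed to 48.5 ± 2.57 TPM in Fdl1-/- and 43.5 ± 2.85 TPM in wild type (SD, n = 3 each). This sum joins means that stood in opposite directions. In Fdl1-/- bt2 was lower, at 20.5 against 24.3 TPM. su1 and ae1 were higher, at 16.05 against 11.8 TPM and 11.06 against 6.5 TPM. sh2 and wx1 were at 0.95 TPM or less in every library.

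**Figure D1:**
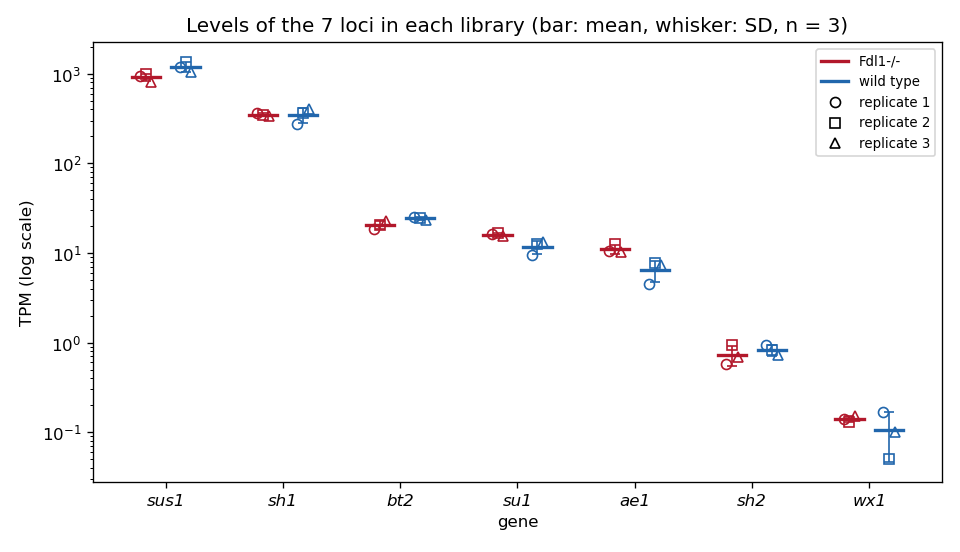
TPM on a log scale for each locus, with Fdl1-/- left of wild type, 1 symbol per library, the mean as a bar and the SD as a whisker (n = 3). The loci run from sus1 at 816 to 1340 TPM down to wx1 at 0.05 to 0.17 TPM, and the order is the same in every library.

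No locus passed the threshold for a difference between the genotypes in edgeR, and 1, ae1, passed it in DESeq2. Of the 7 loci, 6 had enough counts to be tested, and 0 of these had an adjusted p under 0.05 in edgeR's quasi-likelihood test, where 1.68% of 26098 tested genes were called higher and 0.996% lower. At an unadjusted p under 0.05 there were 4 of 6, ae1 and su1 higher in Fdl1-/- and sus1 and bt2 lower, where 15.8% of all tested genes passed that level. DESeq2 called 1 locus, ae1, where it called 3.83% of 28430 genes higher and 3.18% lower, and limma-voom called 0, where it called 2.76% of genes. In CPM, counts scaled to a common library size by TMM, the libraries of the genotypes did not overlap for the same 4 loci, nor for 21.9% of all tested genes. Fold changes on the log2 scale, Fdl1-/- over wild type, had a median of -0.11 for the 6 loci and of -0.033 for the 26098 genes. The change was above 0 for 2 of the 6 loci and for 11790 of the 26098 genes.

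**Figure D2:**
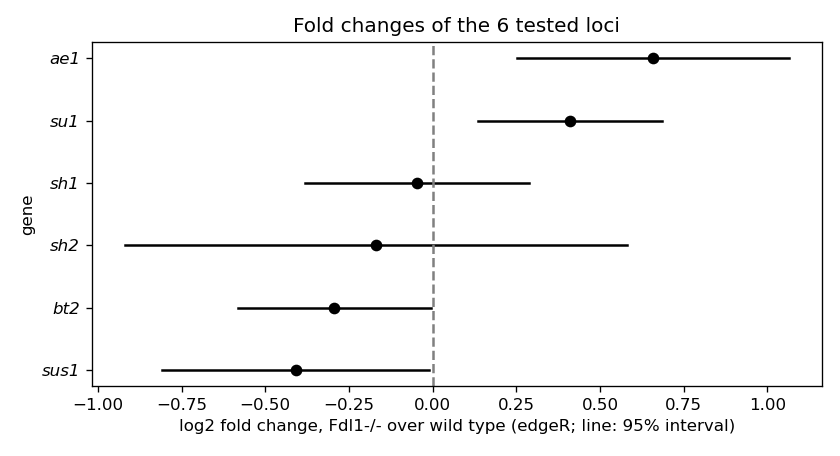
Log2 fold changes of expression, Fdl1-/- over wild type, for the 6 tested loci in edgeR, with lines for the 95% interval. The intervals of ae1 and su1 lie above 0, those of sus1 and bt2 end just below 0, and those of sh1 and sh2 span 0. These intervals are not adjusted for the number of genes tested.

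Of the sucrose synthase genes, sus1 was lower in every Fdl1-/- library than in any wild-type library, without passing the test, and sh1 overlapped between the genotypes. sus1 encodes a sucrose synthase found in many vegetative tissues. It had 2001, 2115 and 1723 CPM in Fdl1-/- replicates 1, 2 and 3, against 2688, 2902 and 2160 CPM in wild-type replicates 1, 2 and 3. Every Fdl1-/- library lay below every wild-type library, with the closest pair being Fdl1-/- replicate 2 and wild-type replicate 3. The means were 1946 ± 202 CPM in Fdl1-/- and 2584 ± 382 CPM in wild type (SD, n = 3 each). On the log2 scale the difference was -0.41 (SE 0.17) with a 95% interval of -0.81 to -0.0097, and edgeR gave sus1 an adjusted p of 0.304. Without wild-type replicate 1 the difference was -0.38. By TPM, sus1 ranked between 83 and 98 among the 45855 genes in the Fdl1-/- libraries and between 43 and 68 in the wild-type libraries.

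sh1 (shrunken1) encodes the sucrose synthase best known from the endosperm. Its level was 628, 609 and 572 CPM in Fdl1-/- replicates 1 to 3, against 524, 655 and 689 CPM in wild-type replicates 1 to 3. The 3 Fdl1-/- libraries lay within the range of the wild-type libraries, of which replicate 1 was lowest. Means were 603 ± 28.9 CPM in Fdl1-/- and 623 ± 86.9 CPM in wild type (SD, n = 3 each). Fitted by edgeR, the log2 fold change of sh1 was -0.047 (SE 0.14), its 95% interval ran from -0.38 to 0.29 and its adjusted p was 0.928. Its interval corresponds to 0.768 to 1.22 times the wild-type level. The value was 0.039 without wild-type replicate 3 and -0.16 without wild-type replicate 1. On the TPM scale the means stood the other way round, at 350 ± 12.4 TPM in Fdl1-/- and 345 ± 65.4 TPM in wild type (SD, n = 3 each). TPM divides by the estimated transcript length. For sh1 this length averaged 2399 ± 25.8 nt in Fdl1-/- and 2460 ± 11.01 nt in wild type (SD, n = 3 each). When edgeR was given effective lengths as offsets, the log2 fold change of sh1 stayed negative, at -0.0095. In limma on TPM it was 0.036 with a pseudocount of 1 or 0.1. Medians over the 26098 genes were higher there too, at 0.018 and 0.024, against -0.033 in edgeR. What turned the sign of sh1 was not tested.

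The expected counts of sh1 and sus1 were whole numbers, within 0.005, in all 3 Fdl1-/- libraries and in wild-type replicate 3. In wild-type replicates 1 and 2 neither was whole, as happens where RSEM divides reads between genes. In those libraries the counts of sh1 and sus1 summed to 84377 and 125557, whole numbers within 0.015. The counts of 17 genes other than sh1 also gave whole sums with sus1 in both libraries. For those genes the remaining libraries were not compared. Whether reads were divided between sh1 and sus1 was not tested. How many reads were divided is not given in the files. The counts of bt2, sh2, ae1 and su1 were whole in 0 of 6 libraries, and their values are uncertain to the extent that reads were divided with similar genes.

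The level of sh1 relative to sus1 was 0.389, 0.353 and 0.415 in Fdl1-/- replicates 1 to 3, as a ratio of TPM, against 0.231, 0.272 and 0.385 in wild-type replicates 1 to 3. Wild-type replicate 3 lay among the Fdl1-/- libraries and the other wild-type libraries lay below all of them. Those others, wild-type replicates 1 and 2, are also the libraries in which the counts of sh1 and sus1 were not whole. Whether this bears on the ratio was not tested. The log2 ratio, with 0.1 added to each TPM here and in the other log2 ratios, averaged -1.38 ± 0.12 in Fdl1-/- and -1.79 ± 0.38 in wild type (SD, n = 3 each). The difference of 0.41 gave an exact permutation p of 0.2, or 0.3 adjusted over the 3 ratios examined, two-sided, where 0.1 is the smallest p that 3 against 3 samples allow. Without wild-type replicate 1 the difference was 0.25, and without wild-type replicate 3 it was 0.62. With expected counts in place of TPM it was 0.37 over all libraries, with an exact permutation p of 0.3.

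Of the genes for subunits of ADP-glucose pyrophosphorylase, bt2 and sh2 were expressed at very unequal levels in these seedlings. Other subunit genes of this enzyme were not analysed, so the levels do not describe the enzyme as a whole. bt2 (brittle2) encodes a small subunit and sh2 (shrunken2) a large subunit of the enzyme, both known mainly from the endosperm. bt2 had 26.3, 29.3 and 32.1 CPM in Fdl1-/- replicates 1 to 3, against 39.4, 35.2 and 32.8 CPM in wild-type replicates 1 to 3. The genotypes did not overlap, but Fdl1-/- replicate 3 lay close to wild-type replicate 3. Mean levels were 29.2 ± 2.89 CPM in Fdl1-/- and 35.8 ± 3.35 CPM in wild type (SD, n = 3 each). edgeR estimated a log2 fold change of -0.29 (SE 0.12) for bt2, with a 95% interval that ended at -0.58 and -0.0047 and an adjusted p of 0.308. The bt2 estimate was -0.22 without wild-type replicate 1.

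sh2 was detected at low depth, with 30.5, 49.95 and 41.2 expected counts in Fdl1-/- replicates 1 to 3, against 43.1, 46.7 and 37.6 in wild-type replicates 1 to 3. These are 1.06, 1.40 and 1.21 CPM in Fdl1-/-, against 1.64, 1.32 and 1.13 CPM in wild type. The genotypes overlapped. For sh2 the log2 fold change in edgeR was -0.17 (SE 0.32), the 95% interval was -0.92 to 0.58 and the adjusted p was 0.878. The estimate depended on single libraries, at -0.027 without wild-type replicate 1, -0.065 without Fdl1-/- replicate 1, -0.28 without Fdl1-/- replicate 2 and -0.27 without wild-type replicate 3. The interval of sh2 over all libraries was the widest of the 6 tested loci, and it reached from 0.529 to 1.49 times the wild-type level.

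Per transcript length, sh2 stood at 0.0310, 0.0455 and 0.0303 of the bt2 level in Fdl1-/- replicates 1 to 3, against 0.0380, 0.0337 and 0.0307 in wild-type replicates 1 to 3. Fdl1-/- replicate 2 was highest, and the other Fdl1-/- libraries lay at the low end with wild-type replicate 3. With 0.1 added to each TPM, which raises this ratio because sh2 is low, the log2 ratio averaged -4.65 ± 0.29 in Fdl1-/- and -4.72 ± 0.13 in wild type (SD, n = 3 each), and the difference of 0.067 gave an exact permutation p of 0.9, also 0.9 when adjusted over the 3 ratios. The difference was -0.10 without Fdl1-/- replicate 2 and 0.14 without wild-type replicate 1.

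wx1 (waxy1), the gene of the granule-bound starch synthase that makes amylose in endosperm and pollen, had almost no reads. Its expected counts were 4, 5 and 5 in Fdl1-/- replicates 1 to 3, against 4, 1.5 and 3 in wild-type replicates 1 to 3. A floor of 3 counts corresponds to 0.084 to 0.104 CPM in the Fdl1-/- libraries and 0.085 to 0.114 CPM in the wild-type libraries. The levels of wx1 were 0.139 to 0.147 CPM in Fdl1-/- and 0.042 to 0.152 CPM in wild type. The genotypes overlapped and wx1 did not pass the filter on low counts. Fitted in edgeR without that filter, its log2 difference had a 95% interval of -1.19 to 2.24 and an adjusted p of 0.831. A fall and a rise both lay within that wide interval.

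Among the 6 tested loci, the branching and debranching enzyme genes had the highest levels in Fdl1-/- relative to wild type, without passing the test in edgeR. ae1 (amylose extender1) encodes a starch branching enzyme of the IIb class. It had 17.1, 19.3 and 15.9 CPM in Fdl1-/- replicates 1 to 3, against 8.95, 12.6 and 11.6 CPM in wild-type replicates 1 to 3. All Fdl1-/- libraries lay above all wild-type libraries, and wild-type replicate 1 was lowest. Mean levels were 17.4 ± 1.70 CPM in Fdl1-/- and 11.02 ± 1.86 CPM in wild type (SD, n = 3 each). Fdl1-/- was higher by 0.66 on the log2 scale (SE 0.17), with a 95% interval of 0.25 to 1.06, which is 1.58-fold with an interval of 1.19 to 2.09. The adjusted p of ae1 was 0.109 in edgeR and 0.0323 in DESeq2, so the call depends on the tool. Over the 18 alternatives run for this gene the adjusted p ran from 0.0323 to 0.357, and DESeq2 alone put it under 0.05. Without wild-type replicate 1 the log2 fold change was 0.53, with an adjusted p of 0.105 in edgeR.

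su1 (sugary1) encodes an isoamylase-type debranching enzyme. Its level was 25.2, 26.8 and 24.6 CPM in Fdl1-/- replicates 1 to 3, against 17.3, 20.2 and 20.1 CPM in wild-type replicates 1 to 3. Again all Fdl1-/- libraries lay above all wild-type libraries, with wild-type replicate 1 lowest. su1 averaged 25.5 ± 1.11 CPM in Fdl1-/- and 19.2 ± 1.66 CPM in wild type (SD, n = 3 each). The log2 fold change of su1 was 0.41 (SE 0.12) and the 95% interval 0.14 to 0.68, a ratio of 1.33-fold, and its adjusted p was 0.135 in edgeR and 0.103 in DESeq2. Without wild-type replicate 1 the log2 fold change was 0.34.

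**Figure D3:**
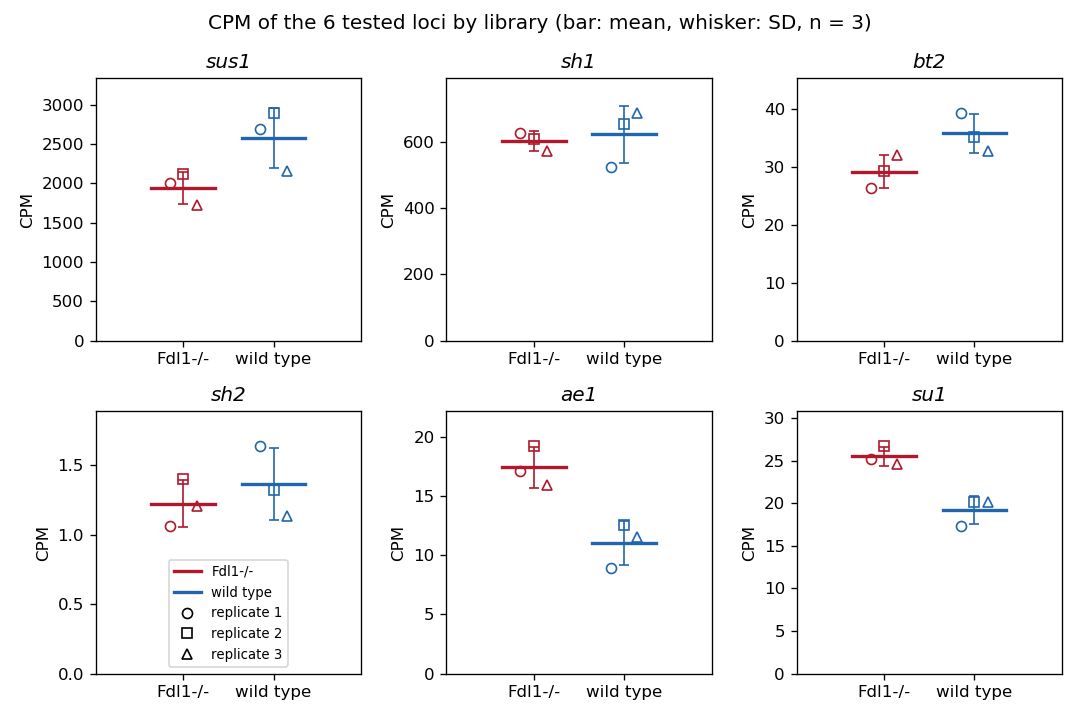
CPM of the 6 tested loci on linear axes from 0, with Fdl1-/- left of wild type, 1 symbol per library, the mean as a bar and the SD as a whisker (n = 3). The genotypes do not overlap for sus1, bt2, ae1 and su1, and they overlap for sh1 and sh2.

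The excess of su1 over ae1 was smaller in every Fdl1-/- library than in any wild-type library. As a ratio of TPM, su1 stood at 1.54, 1.32 and 1.53 times the ae1 level in Fdl1-/- replicates 1 to 3, against 2.11, 1.64 and 1.81 times in wild-type replicates 1 to 3. Fdl1-/- replicate 2 was lowest and wild-type replicate 1 highest. The log2 ratio averaged 0.54 ± 0.13 in Fdl1-/- and 0.87 ± 0.18 in wild type (SD, n = 3 each). By the same two-sided exact permutation test the difference of -0.33 had p = 0.1, which this design cannot go below, and 0.3 when adjusted over the 3 ratios. Without wild-type replicate 1 the difference was -0.24. It was -0.26 over all libraries with expected counts in place of TPM.

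**Figure D4:**
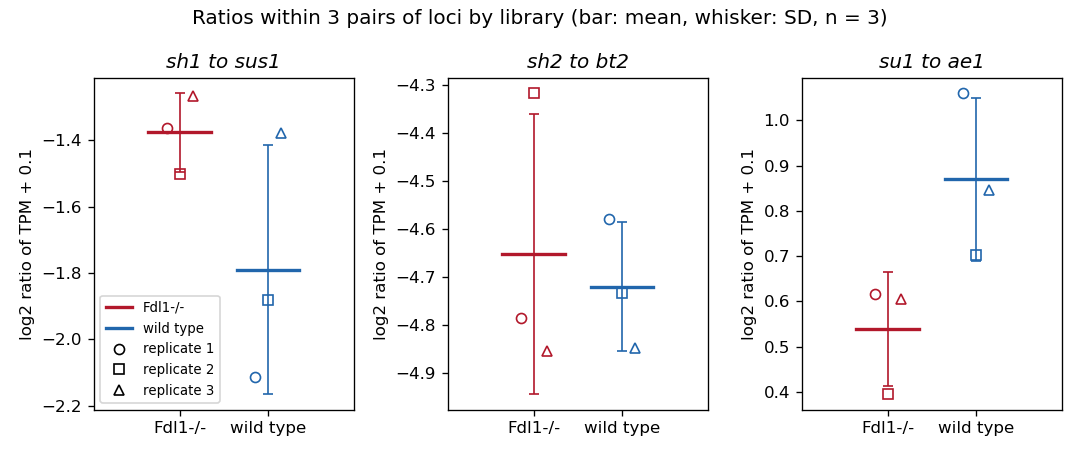
Log2 ratio of TPM (pseudocount 0.1) within 3 pairs of loci, with Fdl1-/- left of wild type, 1 symbol per library, the mean as a bar and the SD as a whisker (n = 3). The su1 to ae1 ratio does not overlap between genotypes, at 0.39 to 0.62 in Fdl1-/- and 0.70 to 1.06 in wild type, while the other ratios overlap.

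The mean transcript length estimated by RSEM, which weights the annotated transcripts of a gene by their estimated shares, is a second readout of each locus. The annotation gives 37 transcripts for ae1, 23 for wx1, 22 for sh2, 20 for sh1, 18 for sus1, 5 for su1 and 4 for bt2. Of the 7 loci, 0 passed a test of this length in limma at an adjusted p under 0.05, where 0.123% of 13792 genes did. At an unadjusted p under 0.05 there were 2, sh1 and wx1, where 5% of genes passed that level. For sh1 the length was 2402, 2423 and 2372 nt in Fdl1-/- replicates 1 to 3, against 2447, 2467 and 2465 nt in wild-type replicates 1 to 3. The genotypes did not overlap, and groups did not overlap toward shorter lengths for 4.95% of the genes tested. In limma the log2 difference in length of sh1 was -0.036 (SE 0.0095) and its adjusted p was 0.772. For wx1 the lengths were 1382 to 1533 nt in Fdl1-/- and 1187 to 1343 nt in wild type, also without overlap, where 4.87% of genes did not overlap toward longer lengths. Each wx1 value rests on 5 counts or fewer.

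For sus1 the estimated length stayed within 5 nt among the Fdl1-/- libraries, from 2957 to 2962 nt, and wild-type replicate 1 stood apart at 2891 nt from the other wild-type libraries at 2958 and 2965 nt. ae1, with the most annotated transcripts, had 2271, 2118 and 2212 nt in Fdl1-/- replicates 1 to 3, against 2510, 2235 and 2282 nt in wild-type replicates 1 to 3, and the genotypes overlapped. For ae1 wild-type replicate 1 was the longest, and the log2 difference in length was -0.089 over all libraries and -0.038 without it. The lengths of sh2 were spread from 2092 to 2595 nt in Fdl1-/- and from 2202 to 2262 nt in wild type, on 50 counts or fewer per library. A difference in this measure does not show that any transcript itself was shorter or longer.

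**Figure D5:**
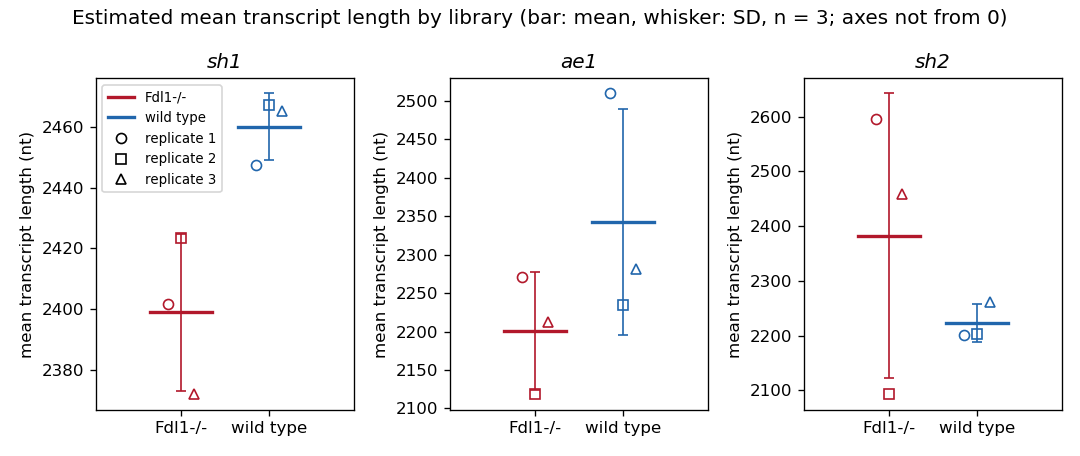
Estimated mean transcript length in nt of sh1, ae1 and sh2, with Fdl1-/- left of wild type, 1 symbol per library, the mean as a bar and the SD as a whisker (n = 3), on axes that do not start at 0. For sh1 the Fdl1-/- libraries at 2372 to 2423 nt lie below the wild-type libraries at 2447 to 2467 nt, while ae1 and sh2 overlap.

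Likeness of profiles was measured as the root-mean-square difference of log-CPM values, each gene centred on its mean over the 6 libraries. Among the tested loci, ae1 and su1 were each other's nearest, at 0.16, and so were bt2 and sh2, at 0.14. Of 13995 genes with a mean of at least 10 CPM outside the set, 0.536% were nearer to ae1 than su1 was and 8.16% were nearer to su1 than ae1 was. For the other pair, 4.69% were nearer to bt2 than sh2 was and 2.72% were nearer to sh2 than bt2 was. For scale, the root mean square of a gene's own centred profile was 0.37 for ae1, 0.22 for su1, 0.19 for bt2, 0.20 for sh2 and 0.13 for sh1. At 1.06 to 1.64 CPM, sh2 lay below the minimum of 10 CPM set for the genes outside the set. sh1 had no close neighbour in the set, its nearest being su1 at 0.23, and 61.5% of genes outside the set were nearer. Outside the set, the gene nearest to ae1 was Zm00001d016081, at 0.058, and the gene nearest to sus1 was Zm00001d035506, at 0.034. With 6 libraries in 2 genotypes, many genes come this near, and these values are descriptions only.

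A list of 35 symbols of other sucrose and starch genes had 17 matches in the RefSeq gene table, but 0 could be paired with an ID of the files. Its members were therefore not analysed here.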

How the data were processed

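Per the labels' protocols, a PureLink kit was used for extraction and stranded TruSeq mRNA libraries were made. Bowtie2, RSEM, DESeq2 and limma are listed without roles or versions in the submitters' processing notes, with build B73 RefGen_v4. Per the file headers, the deposited tables are RSEM output per gene, with expected counts (estimated counts, in which shared reads are divided), TPM, FPKM and length. The deposited FPKM values were not used.

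Expected counts were rounded and tested over all genes with edgeR 4.0.16 in R 4.3.3: filterByExpr (minimum count 10, minimum total 15), TMM, the quasi-likelihood test, two-sided, all 6 libraries, Benjamini-Hochberg adjusted p under 0.05. Standard errors come from the fold change and its F statistic. Log-CPM used a prior count of 2. Log2 ratios used TPM plus 0.1, linear ratios TPM as deposited, and log2 ratios were compared by exact permutation tests (SciPy 1.17.1). Lengths were tested with limma 3.58.1 on genes with more than 1 transcript. Alternatives included DESeq2 1.42.0, limma, other scalings and filters, a replicate block, and fits that each left out a library. Floors cover counting error only. The p-values of edgeR, DESeq2 and limma set the difference between genotypes against the spread between these samples, moderated over the genes tested. Those of the permutation tests rank the difference among all divisions of the samples. The edgeR and limma tests were run on simulated data with changes larger than those estimated for these loci, which does not show how they perform at smaller sizes. All 7 loci are named. The gene nearest in profile is named for the locus with the highest TPM and for that with the lowest p. The members and lists were chosen with earlier results of these data known.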

Additional observations from a re-analysis of the deposited data

How the results depend on the processing

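The log2 fold changes of ae1, su1, sus1, bt2 and sh2 kept their direction under all 18 alternatives, from 0.53 to 0.79 for ae1, 0.34 to 0.46 for su1, -0.51 to -0.32 for sus1, -0.37 to -0.22 for bt2 and -0.28 to -0.027 for sh2. Only DESeq2 moved a locus past the threshold, with ae1 at 0.66 (adjusted p 0.0323), so the count of higher loci was 1 there and 0 otherwise, and the count of lower loci was 0 throughout. The cause was not tested. The sign of sh1 turned in limma on TPM, at 0.036 with either pseudocount, and its range was -0.16 to 0.039 when 1 library was left out. The sh2 to bt2 difference ranged from -0.10 to 0.17 when 1 library was left out, and the length differences of sus1 and su1 from -0.00051 to 0.018 and from -0.021 to 0.012. Deviations from the group means correlated at -0.22, 0.13 and -0.18 between same-numbered samples, and at -0.18 to 0.27 between differently numbered samples. These values give no sign of pairing by replicate number. With a replicate block ae1 had a log2 fold change of 0.67 (adjusted p 0.203 in edgeR), and in edgeR 0 loci passed with or without the block. Over all genes the calls in edgeR were 699, and 122 with the block. Without wild-type replicates 1, 2 and 3 in turn the calls were 757, 149 and 837. Leaving out Fdl1-/- replicates 1, 2 and 3 in turn gave 128, 184 and 193. The shares of all genes called therefore depend on these settings. Low counts limit sh2 and wx1.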
